A study of Caenorhabditis elegans with 36 samples.

Results

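The 38 genes described here encode the contractile filaments of nematode muscle and the structures that fasten these filaments to the body wall. They were taken from a list of gene symbols of Caenorhabditis elegans grouped by role, and all 38 were found among the 46778 gene identifiers of the count files. RNA of whole animals was sequenced from wild type worms (WT, strain N2) and from a model of Parkinson's disease (PD, strain BY273), in which the dat-1 promoter drives GFP and α-synuclein in dopaminergic neurons. L4 hermaphrodites of either strain were put on medium with krill oil at 0.5 µl per ml or on medium without it, called control, and were collected at adult day 1, day 3 and day 6. Strain, diet and day give 12 groups (PD control, PD krill oil, WT control and WT krill oil, each at 3 ages) with 3 libraries each, 36 in all. No FdUrd was given to any group, and adults were parted from their progeny by washing and filtering on each day after day 2. The labels number the replicates without saying what they share, and the study calls them biological. The strain label separates PD from WT, while the genotype label of all samples reads Wildtype. The question put to these genes is how their RNA changes with age in each strain, and how krill oil alters that course.

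Muscle shortens when myosin heads on thick filaments pull on actin thin filaments. Calcium released inside the cell starts the contraction by binding troponin, which shifts tropomyosin along the actin. In body wall muscle of C. elegans the thin filaments are held by dense bodies and the thick filaments by M-lines, and both are anchored through integrin to perlecan in the basement membrane. The pharynx, the feeding pump, has its own myosin and troponin genes. By role the list holds 9 thick filament genes, 4 genes of immunoglobulin-domain proteins, 10 troponin and tropomyosin genes, 7 genes of actin and its regulators, 7 dense body and attachment genes and the calcium release channel gene unc-68. The figures label the immunoglobulin-domain role as giant, but dim-1 is a short gene with 2.48 kb of exon. The other genes of that role, unc-22, unc-89 and ttn-1, have 23.4, 25.9 and 56.0 kb.

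The depth of the libraries ran from 16488713 to 34605080 counts (median 24785463), of which ribosomal RNA genes took 5.31% to 24.5%. The 38 genes took 0.530% to 1.68% of the counts of a library, and each was counted in all 36 libraries. Levels are given in CPM, counts set against the total of their library, scaled by TMM factors over the 36 libraries. A gene is called higher or lower where its adjusted p in edgeR's quasi-likelihood test is under 0.05 (Benjamini-Hochberg over all genes tested), at any fold change. Errors of log2 fold changes are standard errors, those of levels are standard deviations over 3 libraries, and p-values measure the spread between the libraries of a group. Because whole worms were sequenced, fewer muscle cells, less muscle beside other tissues and less RNA of a gene per muscle cell cannot be told apart.

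Per kilobase of exon, the level averaged over the 12 groups was highest for act-4 (646 CPM per kb), act-2 (561 CPM per kb) and unc-60 (518 CPM per kb), genes of actin and of its severing factor ADF/cofilin. It was lowest for ttn-1, which encodes a titin-like protein, at 6.60 CPM per kb, and for myo-5, a further myosin heavy chain gene, at 7.03 CPM per kb. The genes are spread unevenly over the genome, with 12 of 38 (31.6%) on chromosome V and 11 of 38 (28.9%) on X, against 19.3% and 14.2% of the tested genes. Among them act-1, act-2 and act-3 lie beside each other on chromosome V, between 11071690 and 11082415 of WBcel235, and mlc-1 and mlc-2 are neighbours on X, between 17455792 and 17460778. Reads of near-identical copies, act-1 to act-4 and mlc-1 with mlc-2, may have been shared between them, so values of single copies are uncertain, those of act-4 included.

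Summed over the 38 genes, the level in PD control animals was 17650, 17880 and 17340 CPM at day 1, 7159, 7334 and 7152 CPM at day 3 and 5623, 5390 and 5376 CPM at day 6. With krill oil the PD libraries stood at 14090, 14350 and 12470 CPM at day 1, at 11240, 11490 and 11880 CPM at day 3 and at 12350, 9908 and 9038 CPM at day 6. Krill oil libraries of PD animals were thus all below the controls at day 1 and all above them at day 3 and day 6. In WT controls the sum was 15400, 15150 and 13040 CPM at day 1, 6833, 6960 and 8874 CPM at day 3, and 8576, 8691 and 8746 CPM at day 6. WT animals with krill oil had 12460, 12500 and 12500 CPM at day 1, 11160, 12080 and 11280 CPM at day 3, and 9880, 9616 and 10330 CPM at day 6, again below the controls at day 1 and above them at the later ages. The ratio of the mean sums, krill oil to control, was 0.774, 1.60 and 1.91 in PD and 0.860, 1.52 and 1.15 in WT at day 1, 3 and 6. Replicate 1 of PD krill oil day 6 and replicate 3 of WT control day 3 lay above the other libraries of their groups. Replicate 3 of PD krill oil day 1 lay below the others and had the largest share of ribosomal RNA of the 36 libraries (24.5%, TMM factor 0.787). Replicate 3 of WT control day 6 had 23.5% ribosomal RNA and a TMM factor of 0.9175. Replicates 1 and 2 of that group had 5.795% and 9.37%, with factors of 1.135 and 1.11.

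**Figure D1:**
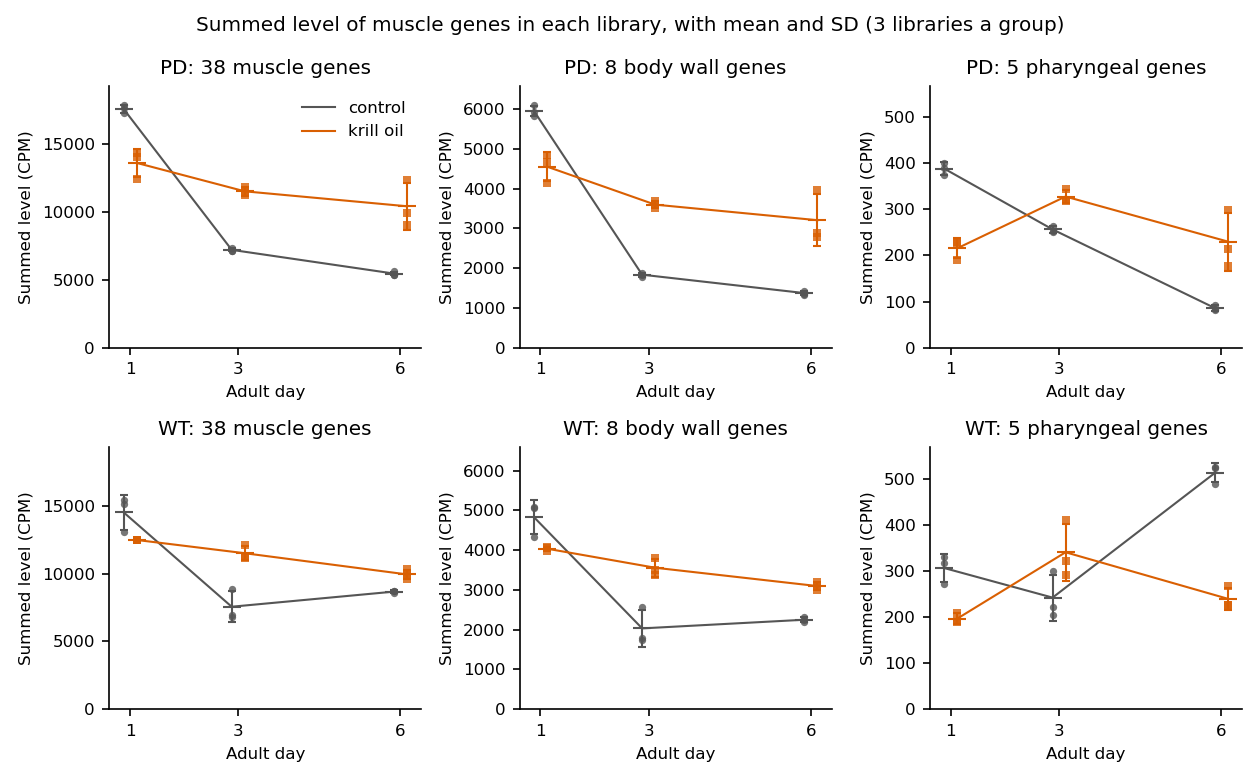
Summed level in CPM (y axis) against adult day (x axis) for the 38 muscle genes, 8 body wall muscle genes and 5 pharyngeal muscle genes, in PD (top) and WT (bottom). Points are libraries, lines join group means and bars are SD of 3 libraries. At day 6 the sum of the 38 genes was 5463 CPM in PD controls and 10430 CPM with krill oil, while the pharyngeal genes were highest in WT controls at day 6 (513 CPM).

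The lowest group mean of 34 of the 38 genes was that of PD control day 6, and the highest group mean of 25 was that of PD control day 1. A further 7 genes were highest in WT control day 6 and 6 in PD krill oil day 3. These extremes were taken for the 38 genes alone, so no share over all genes stands beside them. The span between the highest and the lowest group mean was widest for the pharyngeal troponin T gene tnt-4 (8.88-fold), the pharyngeal myosin gene myo-1 (7.17-fold) and the troponin I gene tni-1 (7.17-fold). It was narrowest for pat-3, the β integrin gene, at 1.22-fold, for unc-60 at 1.24-fold and for act-2 at 1.60-fold.

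At day 1, krill oil lowered most of these genes in PD animals. Of the 38 genes, 32 were lower and 0 higher than in controls, against 8.07% lower and 7.44% higher of all genes tested, and the median log2 fold change was -0.38 (0.01 over all genes). No gene of the list was higher at an unadjusted p under 0.05 or by DESeq2 either, where 32 were lower as well. All 9 thick filament genes were lower, as were all 4 immunoglobulin-domain protein genes, 8 of 10 troponin and tropomyosin genes, 5 of 7 actin genes, 5 of 7 attachment genes and unc-68. The 6 genes that were not called were tni-1, tni-3, act-2, unc-60, pat-3 and unc-112. Without PD krill oil replicate 3, 31 were lower and the median was -0.31. In WT animals 13 genes were lower and 0 higher, against 2.49% and 4.87% of all genes, with a median of -0.21 (-0.01 over all genes). DESeq2 gave 17 lower and 0 higher, and edgeR at an unadjusted p under 0.05 gave 20 lower and 0 higher. All 13 were also lower in PD. Replicate 3 of WT control day 1 was below the other controls, and without it 30 genes were lower in WT.

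Among the deepest falls at day 1 were those of the troponin T gene tnt-3, the body wall myosin gene myo-3 and the pharyngeal genes myo-1, myo-2 and tnt-4. The level of tnt-3 was 130, 133 and 138 CPM in PD controls and 68.7, 74.6 and 59.0 CPM with krill oil, and 124, 120 and 124 CPM in WT controls against 59.98, 60.4 and 63.6 CPM with krill oil. No krill oil library reached a control, and tnt-3 fell by 0.98 ± 0.07 on the log2 scale in PD and by 1.00 ± 0.04 in WT (adjusted p = 5.78e-06 and 3.13e-05, edgeR). The pharyngeal myosin heavy chain genes myo-1 and myo-2 fell by 0.91 ± 0.06 and 0.86 ± 0.08 in PD and by 0.66 ± 0.07 and 0.70 ± 0.10 in WT. For tnt-4 the changes were -0.96 ± 0.13 and -0.85 ± 0.12, and for myo-3 they were -0.91 ± 0.06 and -0.78 ± 0.07. The main body wall myosin gene unc-54, by contrast, had a log2 fold change of -0.40 ± 0.07 in PD (adjusted p = 0.00334) and of -0.28 ± 0.08 in WT, where it was not called (adjusted p = 0.0771). Across the 38 genes, the log2 fold changes of the strains had a Pearson r of 0.913 and a Spearman rho of 0.854 at day 1, as a description over genes that share libraries. The test of the difference between the strains called 0 genes higher and 0 lower at day 1, against 0.0345% and 0.0552% of all genes, with 0 and 6 at an unadjusted p under 0.05, and DESeq2 also called 0.

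At day 3 the direction was the opposite. In PD animals 36 of the 38 genes were higher with krill oil and 1 was lower, against 21.2% higher and 19.9% lower of all genes, with a median log2 fold change of 0.73 (0.00 over all genes). In WT animals 32 were higher and 1 lower, against 22% and 14.1% of all genes, with a median of 0.68 (0.00 over all genes). The 32 genes higher in WT were all higher in PD too. In both strains the lower gene was tnt-3 (-0.24 ± 0.05 in PD, -0.29 ± 0.06 in WT), whose PD call was lost when all 36 libraries were fitted together, and tni-4, the pharyngeal troponin I gene, was not called. In WT, myo-1 (0.47 ± 0.17, adjusted p = 0.0512), act-2, unc-60 and pat-3 were not called either.

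The largest rise at day 3 in PD was that of tnt-2, a troponin T gene. It was at 101, 108 and 99.6 CPM in PD controls and at 231, 242 and 252 CPM with krill oil, a log2 fold change of 1.23 ± 0.04 (adjusted p = 2.68e-10, edgeR). In WT the controls had 133, 145 and 217 CPM and the krill oil libraries 281, 272 and 284 CPM (0.76 ± 0.15, adjusted p = 0.00344), so the groups did not overlap in either strain. The body wall myosin gene myo-3, whose product lies in the middle of the thick filament, rose by 1.04 ± 0.04 in PD and by 1.22 ± 0.12 in WT. For unc-54 the rises were 1.03 ± 0.03 and 0.82 ± 0.14, and for unc-15, the paramyosin gene, 0.87 ± 0.03 and 0.74 ± 0.12. The troponin T gene mup-2 rose by 1.12 ± 0.04 in PD and by 1.11 ± 0.12 in WT. Across genes, the changes of the strains had r = 0.836 and rho = 0.784. The difference between the strains was called for 1 gene, pat-2, the α integrin gene (lower in PD relative to WT at -0.42 ± 0.12, adjusted p = 0.0377), with 0 called in the other direction, against 6.2% and 3.4% of all genes. DESeq2 called 1 gene in each direction, and at an unadjusted p under 0.05 edgeR had 3 and 2. The pat-2 call did not hold up against leaving out libraries, since 0 genes were called without any of 9 of the 12 libraries, and 7 were called without replicate 3 of WT control. In the other direction, where 0 were called with all libraries, 3 were called without replicate 1 of WT control, 2 without its replicate 2, and 1 without its replicate 3, PD krill oil replicate 1 or WT krill oil replicate 1 or 3.

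**Figure D2:**
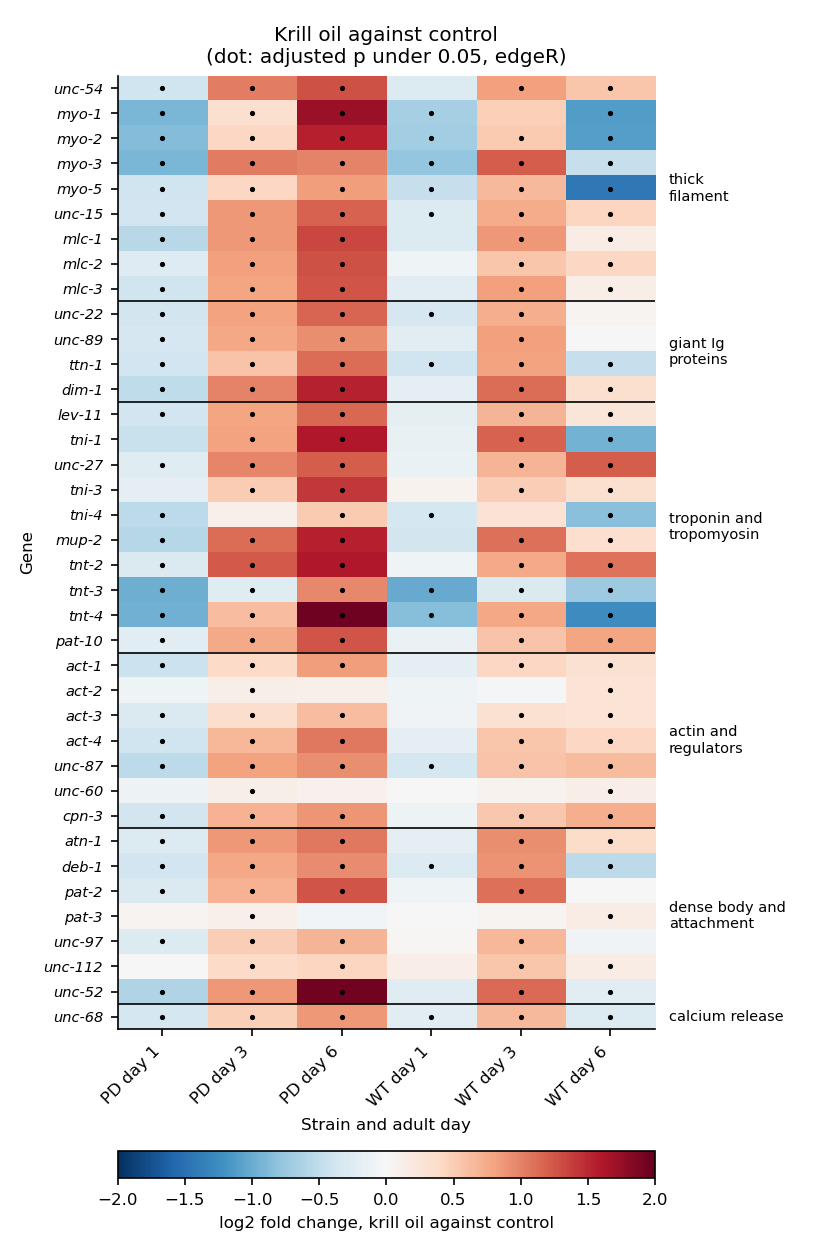
Log2 fold change of krill oil against control (colour scale from -2 to 2) for the 38 genes (rows, grouped by role) in each strain at each age (columns). A dot marks an adjusted p under 0.05 in edgeR: the day 1 columns hold 32 and 13 lower genes, the day 3 columns 36 and 32 higher ones, and the WT day 6 column 22 higher and 12 lower ones.

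At day 6 the strains parted. In PD animals krill oil raised 35 of the 38 genes and lowered 0, against 24.8% higher and 12% lower of all genes, with a median log2 fold change of 1.13 (0.06 over all genes). At an unadjusted p under 0.05 and by DESeq2, 0 genes were lower as well, and without replicate 3 of PD krill oil 1 gene was. All 9 thick filament, 4 immunoglobulin-domain protein and 10 troponin and tropomyosin genes were higher, with 5 of 7 actin genes, 6 of 7 attachment genes and unc-68. The 3 genes not called were act-2 (0.10 ± 0.06, adjusted p = 0.224), unc-60 (0.09 ± 0.06, adjusted p = 0.227) and pat-3 (-0.05 ± 0.07, adjusted p = 0.543). The median was 0.94 without replicate 1 of PD krill oil day 6, the library with the highest sum, and 35 genes were still called.

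In WT animals at day 6, krill oil raised 22 genes and lowered 12, against 30.9% and 32.6% of all genes, with a median of 0.15 (-0.02 over all genes), and 4 were not called. The share of lower genes was thus near that of all genes. When libraries were scaled by their totals alone, the split was 12 higher and 11 lower. Of the 35 genes higher in PD, 19 were higher in WT, 12 were lower in WT and 4 were not called there (unc-22, unc-89, pat-2 and unc-97). The remaining 3 genes, act-2, unc-60 and pat-3, were not called in PD and were higher in WT, by 0.28 ± 0.05, 0.14 ± 0.04 and 0.16 ± 0.04. For unc-60 the direct test did not call the difference between the strains. The 12 genes that moved in opposite directions were the myosins myo-1, myo-2, myo-3 and myo-5, the titin-like ttn-1, the troponins tni-1, tni-4, tnt-3 and tnt-4, the vinculin gene deb-1, the perlecan gene unc-52 and the ryanodine receptor gene unc-68. Joint calls of both strains, here and at day 1 and 3, were counted for the 38 genes alone. No joint share over all genes stands beside them. Across the 38 genes the changes of the strains had r = -0.131 and rho = 0.0117.

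Tested directly, the krill oil effect differed between the strains for 34 of the 38 genes at day 6, with 32 more positive in PD and 2, act-2 and pat-3, more positive in WT, against 34.5% and 25.1% of all genes. The median of this difference was 1.00 on the log2 scale (0.23 over all genes), and it shares its libraries with the comparisons within each strain. The all-gene median moved with the scaling, from 0.09 under RLE factors to 0.31 under library totals, and the 38 genes lay 0.77 above it under each of the 3 scalings. The genes without a call were unc-27, act-3, unc-60 and cpn-3. The calls of act-2 and pat-3 fell to 0 without replicate 1 of PD control or replicate 2 of WT control, and to 1 without any of 6 other libraries.

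**Figure D3:**
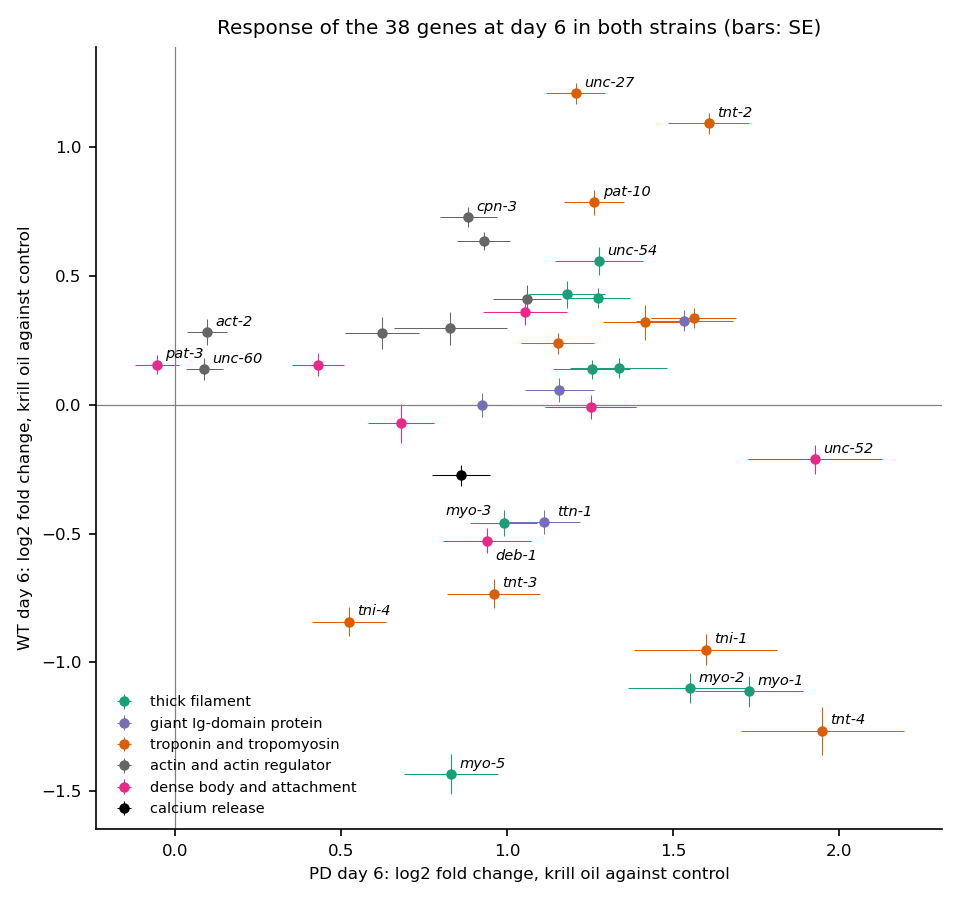
Log2 fold change of krill oil against control at day 6 in PD (x axis) and WT (y axis) for the 38 genes, coloured by role, with standard errors as bars. Genes in the lower right, among them tnt-4 (1.95 and -1.26) and myo-1 (1.73 and -1.11), were higher in PD and lower in WT, and act-2, unc-60 and pat-3 lie near 0 on the x axis.

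Among thick filament genes at day 6, the pharyngeal myosins showed the widest contrast. The level of myo-1 was 30.6, 25.3 and 24.8 CPM in PD controls and 114.6, 76.9 and 71.2 CPM with krill oil, and it was 182, 200 and 196 CPM in WT controls and 84.5, 82.5 and 99.6 CPM with krill oil. The krill oil groups of the strains thus overlapped, and the controls lay far below them in PD and far above them in WT. The log2 fold changes of myo-1 were 1.73 ± 0.16 in PD (adjusted p = 7.89e-05) and -1.11 ± 0.06 in WT (adjusted p = 4.37e-09), and their difference was 2.82 ± 0.19 (adjusted p = 2.09e-07, edgeR). For myo-2 the level was 33.9, 30.2 and 28.6 CPM in PD controls against 121, 80.7 and 65.0 CPM, and 195, 209 and 216 CPM in WT controls against 92.4, 89.3 and 107 CPM. Its changes were 1.55 ± 0.19 and -1.10 ± 0.06, with no overlap of diets in either strain. For myo-5 the PD controls had 16.99, 17.3 and 18.5 CPM and the krill oil libraries 38.7, 28.4 and 24.8 CPM, and the WT controls 82.3, 90.4 and 92.5 CPM against 28.8, 31.3 and 37.6 CPM (0.83 ± 0.14 and -1.43 ± 0.08).

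The body wall myosins did not move alike. The major heavy chain gene unc-54, on chromosome I from 14855901 to 14863482, was at 700, 645 and 631 CPM in PD controls at day 6 and at 1997, 1315 and 1384 CPM with krill oil. In WT it was at 1036, 1025 and 1096 CPM in controls and at 1552, 1458 and 1608 CPM with krill oil, so that krill oil libraries were above the controls in both strains (1.28 ± 0.13 and 0.56 ± 0.05). The gene myo-3, on chromosome V from 12226817 to 12234343, rose in PD from 78.3, 77.8 and 70.7 CPM to 176, 133 and 132 CPM and fell in WT from 232, 249 and 266 CPM to 172, 180 and 189 CPM (0.99 ± 0.10 and -0.46 ± 0.05). Paramyosin, unc-15, and the light chain genes mlc-1, mlc-2 and mlc-3 were higher in both strains, by 1.18 to 1.34 in PD and by 0.14 to 0.43 in WT. These 4 genes and unc-54 were also more positive in PD by the direct test, by 0.70 to 1.18 on the log2 scale.

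All 4 genes of immunoglobulin-domain proteins were higher with krill oil in PD at day 6, where 24.8% of all genes were higher. In WT 1 was higher and 1 lower, against 30.9% and 32.6% of all genes, so these counts were near the shares of all genes. The level of dim-1 was 47.1, 43.2 and 44.2 CPM in PD controls and 158, 128 and 95.7 CPM with krill oil, and 95.4, 101 and 94.3 CPM in WT controls against 116, 122 and 125 CPM (1.53 ± 0.15 and 0.33 ± 0.04). The titin-like gene ttn-1 went from 155, 154 and 150 CPM to 398, 287 and 286 CPM in PD and from 437, 466 and 473 CPM to 321, 325 and 353 CPM in WT (1.11 ± 0.11 and -0.45 ± 0.05). Diets did not overlap for either gene, but they had opposite directions in WT. The twitchin gene unc-22, whose loss makes worms twitch, was at 258, 256 and 248 CPM in PD controls and 675, 484 and 506 CPM with krill oil (1.16 ± 0.10). In WT its libraries overlapped, with 506, 516 and 544 CPM in controls and 519, 541 and 560 CPM with krill oil (0.06 ± 0.05, adjusted p = 0.289). The obscurin gene unc-89, of the M-line, had 0.93 ± 0.08 in PD and 0.00 ± 0.05 in WT (adjusted p = 0.992).

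Of the troponin and tropomyosin genes, 6 were higher and 4 lower in WT at day 6, and all 10 were higher in PD. Over all genes 30.9% were higher and 32.6% lower in WT, and 24.8% were higher in PD. The share of lower genes in WT was thus not far from that of all genes. Among troponin T genes, tnt-2 was at 100, 95.3 and 99.5 CPM in PD controls and 355, 292 and 233 CPM with krill oil, and at 114, 114.7 and 107 CPM in WT controls and 233, 233 and 247 CPM with krill oil. It rose in both strains, by 1.61 ± 0.12 in PD and 1.09 ± 0.04 in WT. The pharyngeal gene tnt-4, on chromosome V from 1989471 to 1992918, went from 5.61, 4.46 and 4.76 CPM to 23.6, 21.2 and 11.4 CPM in PD and from 45.8, 44.4 and 41.6 CPM to 15.5, 17.2 and 21.7 CPM in WT. Its changes were 1.95 ± 0.24 and -1.26 ± 0.09, and their difference was 3.19 ± 0.29 on the log2 scale (adjusted p = 1.31e-06, edgeR). The gene tnt-3, lower with krill oil at day 1 and 3 in both strains, was higher at day 6 in PD, at 47.9, 37.5 and 31.3 CPM against 20.5, 22.3 and 18.5 CPM (0.96 ± 0.14). In WT it stayed lower, at 32.9, 33.2 and 37.5 CPM against 55.6, 58.4 and 59.1 CPM (-0.73 ± 0.06).

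The troponin I genes split in the same way. The main body wall gene unc-27 was at 119.4, 111 and 117 CPM in PD controls and 302, 256 and 227 CPM with krill oil at day 6, and at 98.9, 92.3 and 93.99 CPM in WT controls and 216, 226 and 213 CPM with krill oil. Its rises, 1.21 ± 0.09 in PD and 1.21 ± 0.04 in WT, differed by -0.02 ± 0.10 (adjusted p = 0.887). The gene tni-1 went from 8.13, 7.00 and 6.77 CPM to 28.0, 22.8 and 14.3 CPM in PD and from 50.4, 56.1 and 50.5 CPM to 25.6, 26.9 and 28.4 CPM in WT (1.60 ± 0.21 and -0.95 ± 0.06). For pharyngeal tni-4 the changes were 0.52 ± 0.11 and -0.84 ± 0.06. The body wall troponin C gene pat-10 rose by 1.26 ± 0.09 and 0.79 ± 0.05, the tropomyosin gene lev-11 by 1.15 ± 0.11 and 0.24 ± 0.04, mup-2 by 1.56 ± 0.13 and 0.34 ± 0.04, and tni-3 by 1.42 ± 0.13 and 0.32 ± 0.07.

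Actin and its regulators were the role in which all 7 genes were higher with krill oil in WT at day 6, where 30.9% of all genes were higher. The actin gene act-4 was at 518, 480 and 487 CPM in PD controls and 1182, 998 and 850 CPM with krill oil, and at 691, 704 and 667 CPM in WT controls and 959, 836 and 933 CPM with krill oil (1.06 ± 0.10 and 0.41 ± 0.05). The gene unc-87, whose product binds and bundles actin filaments, went from 121, 123 and 122 CPM to 254, 230 and 198 CPM in PD and from 144, 144 and 142 CPM to 215, 222 and 225 CPM in WT (0.93 ± 0.08 and 0.64 ± 0.03). Calponin-like cpn-3 went from 81.3, 76.7 and 77.7 CPM to 166, 130 and 131 CPM in PD and from 87.9, 81.2 and 85.1 CPM to 138, 139 and 141 CPM in WT (0.88 ± 0.09 and 0.73 ± 0.04). The diets did not overlap for these 3 genes in either strain. The neighbouring genes act-1 and act-3 had changes of 0.83 ± 0.17 and 0.62 ± 0.11 in PD and of 0.30 ± 0.06 and 0.28 ± 0.06 in WT. In contrast, act-2 had 622, 614 and 593 CPM in PD controls and 636, 609 and 666 CPM with krill oil, and these libraries overlapped.

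Dense body and attachment genes differed among themselves. Perlecan, encoded by unc-52 on chromosome II from 14647321 to 14684456, rose in PD from 61.3, 52.2 and 52.01 CPM to 292, 174 and 153 CPM (1.93 ± 0.20, adjusted p = 0.000125) and in WT went from 225, 237 and 246 CPM to 194, 189 and 225 CPM (-0.21 ± 0.06, adjusted p = 0.00524). In WT the highest krill oil library reached the lowest control, and the call was lost when library totals alone set the scale. The α integrin gene pat-2 rose in PD from 23.9, 25.9 and 21.96 CPM to 69.9, 51.6 and 46.1 CPM (1.25 ± 0.14) and was at 52.02, 54.9 and 56.2 CPM in WT controls and 53.8, 54.7 and 52.7 CPM with krill oil (-0.01 ± 0.05, adjusted p = 0.885). Its partner, the β integrin gene pat-3, was between 187 and 218 CPM in PD with krill oil and between 208 and 216 CPM in PD controls. The vinculin gene deb-1 went from 29.9, 28.8 and 28.0 CPM to 68.9, 48.6 and 45.9 CPM in PD and from 82.7, 85.5 and 88.97 CPM to 57.8, 56.4 and 63.1 CPM in WT (0.94 ± 0.13 and -0.53 ± 0.05). The α-actinin gene atn-1 (1.05 ± 0.13 and 0.36 ± 0.05) and the kindlin gene unc-112 (0.43 ± 0.08 and 0.15 ± 0.04) were higher in both strains. The gene unc-97, of the PINCH family of LIM proteins, had 0.68 ± 0.10 in PD and -0.07 ± 0.08 in WT, where it was not called (adjusted p = 0.420). The ryanodine receptor gene unc-68, which encodes the calcium release channel, went from 89.3, 87.7 and 89.6 CPM to 186, 146 and 142 CPM in PD and from 175, 183 and 187 CPM to 144, 149 and 156 CPM in WT (0.86 ± 0.09 and -0.27 ± 0.04).

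**Figure D4:**
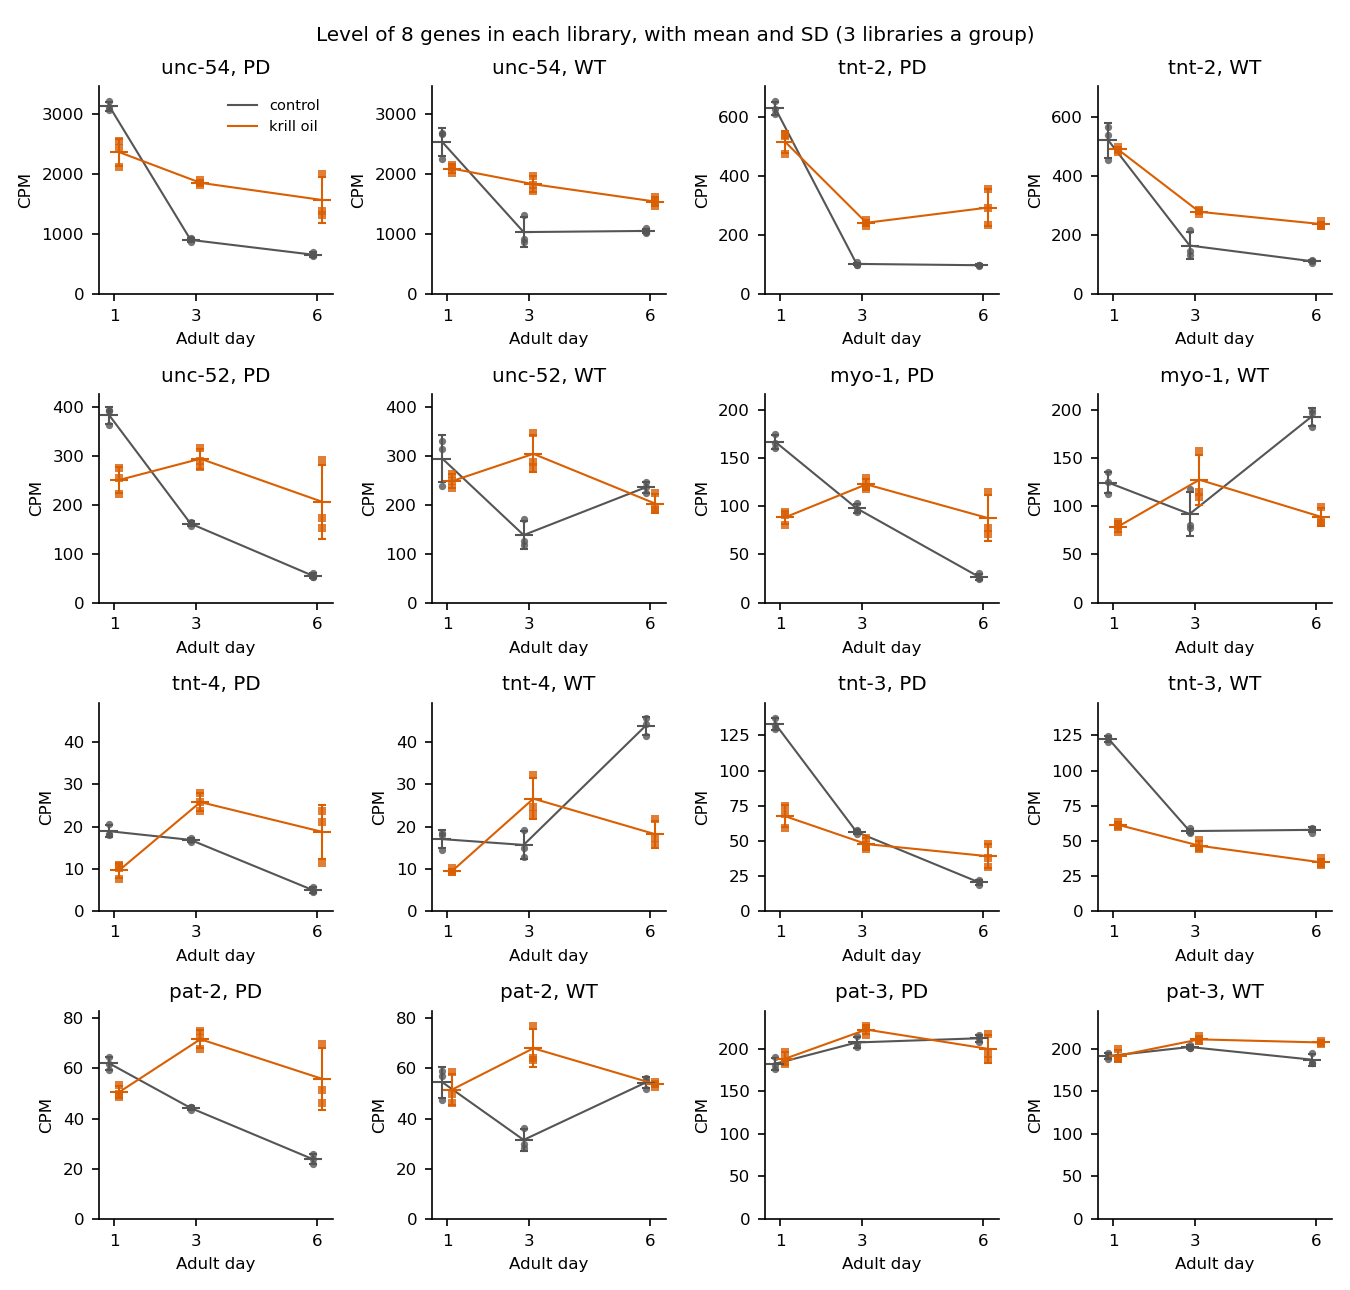
Level in CPM (y axis) against adult day (x axis) of 8 genes in PD and WT, with a point for each library, lines through the group means and bars for the SD of 3 libraries. In PD controls unc-54, tnt-2, unc-52, myo-1, tnt-4, tnt-3 and pat-2 ended below the krill oil group at day 6, and pat-3 stayed between 176 and 226 CPM in all libraries of PD. In WT controls all libraries of myo-1, tnt-4 and tnt-3 ended above the krill oil group at day 6. There unc-52 was called lower with krill oil as well, though its highest krill oil library reached the lowest control.

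In control animals of both strains most of these genes were lower at day 3 than at day 1. In PD controls 33 genes were lower at day 3 and 1, pat-3, was higher (0.19 ± 0.05), against 21.5% and 26.2% of all genes, with a median of -1.23 (0.03 over all genes). In WT controls 32 were lower and 0 higher, against 12.3% and 11.4% of all genes, with a median of -0.94 (-0.01 over all genes). At an unadjusted p under 0.05 edgeR had 33 lower and 1 higher in WT, and DESeq2 called 31 lower and 0 higher, and without WT control day 1 replicate 3 edgeR called 1 higher. The deepest fall was that of tnt-2, by 2.61 ± 0.10 in PD and by 1.66 ± 0.12 in WT, and unc-27 fell by 2.00 ± 0.07 and 1.39 ± 0.10. The genes myo-5 (-0.05 ± 0.11), tni-1 (0.30 ± 0.20), tnt-4 (-0.16 ± 0.18) and unc-112 (-0.11 ± 0.06) were not called in PD.

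From day 3 to day 6 the controls of the strains went apart. The day 3 libraries enter both steps, so the steps are not independent. In PD controls 31 genes were lower and 0 higher, against 33.3% and 28.4% of all genes, with a median of -0.44 (-0.12 over all genes), and by DESeq2 29 were lower and 0 higher. At an unadjusted p under 0.05 edgeR had 31 and 0. In WT controls 22 were higher and 6 lower, against 36.8% and 28.5% of all genes, with a median of 0.38 (0.13 over all genes). The genes lower in WT were unc-27, tnt-2, act-2, unc-60, cpn-3 and pat-3. Large steps were those of the pharyngeal genes and tni-1. The gene myo-1 fell by 1.83 ± 0.13 in PD and rose by 1.07 ± 0.14 in WT, tnt-4 fell by 1.74 ± 0.20 and rose by 1.49 ± 0.15, and tni-1 fell by 1.57 ± 0.21 and rose by 1.69 ± 0.13. Perlecan, unc-52, fell by 1.52 ± 0.16 in PD and rose by 0.77 ± 0.13 in WT. Across the 38 genes the steps of the strains had r = -0.760 and rho = -0.807, as a description.

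With krill oil the medians of the age steps lay nearer 0. From day 1 to day 3, 15 genes were higher and 18 lower in PD, against 25.9% and 23.3% of all genes, with a median of -0.07 (0.02 over all genes). In WT 14 were higher and 12 lower, against 21.8% and 20.1% of all genes, with a median of -0.01 (0.02 over all genes). From day 3 to day 6, 5 were higher and 15 lower in PD, against 18.3% and 16.8% of all genes, and 0 were higher and 14 lower in WT, against 10.3% and 11.8%. For WT this last step gave 0 higher and 21 lower at an unadjusted p under 0.05, and 0 and 15 by DESeq2. The medians were -0.20 (0.00 over all genes) in PD and -0.23 (-0.02) in WT. These counts depend on single libraries. Without PD krill oil day 6 replicate 1 the step had 2 higher and 24 lower genes, without replicate 3 it had 9 higher, and 2 or 3 were higher without replicate 2 of day 6 or replicate 1 or 2 of day 3. In WT, 8 were lower without replicate 2 of day 3 or replicate 2 of day 6.

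Single genes of krill oil animals still moved with age. From day 1 to day 3 tni-1 rose by 1.55 ± 0.20 in PD and 1.47 ± 0.14 in WT, tnt-4 by 1.41 ± 0.19 and 1.50 ± 0.16, and myo-3 by 0.96 ± 0.08 and 1.13 ± 0.11. Over the same step tnt-2 fell by 1.098 ± 0.10 and 0.81 ± 0.12 and unc-27 by 0.76 ± 0.07 and 0.58 ± 0.10. From day 3 to day 6 myo-5 fell by 0.95 ± 0.11 and 0.81 ± 0.12, and deb-1 by 0.76 ± 0.10 and 0.48 ± 0.08.

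Comparing the control animals of the strains at each age, 21 of the 38 genes were higher in PD at day 1 and 0 lower, against 5.88% and 5.01% of all genes, with a median of 0.28 (0.00 over all genes). At an unadjusted p under 0.05 edgeR had 26 higher and 0 lower, and DESeq2 called 24 and 0. Without replicate 1, 2 or 3 of PD control day 1, edgeR called 10, 9 or 13 higher. The largest of these differences were cpn-3 at 0.52 ± 0.07, myo-3 at 0.44 ± 0.07 and unc-87 at 0.43 ± 0.08. At day 3, 8 were higher and 5 lower in PD, against 21.5% and 16.3% of all genes, with a median of 0.00 (0.05 over all genes). Neither share was above that of all genes. The attachment genes deb-1, pat-2, unc-97 and unc-112 were among those higher, by 0.24 to 0.48, and tnt-2 was lower at -0.69 ± 0.12. These counts ranged from 4 to 14 higher and from 3 to 10 lower when single libraries were left out, with 14 and 3 without replicate 3 of WT control, 4 and 10 without its replicate 1, 4 higher without its replicate 2, and 5 and 3 without replicate 3 of PD control.

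At day 6, 30 genes were lower and 4 higher in PD than in WT controls, against 43.5% and 30.2% of all genes. The median of the 38 genes was -0.84 and that of all genes -0.25. The all-gene median was -0.11 under RLE factors and -0.31 under library totals, and the 38 genes lay 0.59 below it under all 3 scalings. The 4 higher genes were unc-27 (0.28 ± 0.07), pat-3 (0.18 ± 0.06), act-2 (0.15 ± 0.06) and unc-60 (0.13 ± 0.05), and 2 of these calls were lost without replicate 1 of PD control or replicate 2 of WT control. The largest differences were -3.15 ± 0.21 for tnt-4, -2.84 ± 0.14 for myo-1, -2.84 ± 0.17 for tni-1, -2.74 ± 0.16 for myo-2 and -2.33 ± 0.13 for myo-5. For unc-54 the difference was -0.68 ± 0.11. This comparison uses the control libraries that also enter the krill oil comparisons.

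Ratios between related genes within a library do not depend on the total of that library. They were taken on counts without correction for length, so their course over groups is given and not their size. The mean ratio of tnt-2 to tnt-3 was higher with krill oil in both strains at every age, with no test made. In PD its mean was 4.72, 1.83 and 4.85 in controls at day 1, 3 and 6 and 7.67, 5.09 and 7.54 with krill oil, and in WT it was 4.24, 2.89 and 1.94 in controls and 7.99, 6.03 and 6.89 with krill oil. The ratio of unc-54 to myo-3 went from 14.9 at day 1 to 11.02 and 4.23 in WT controls and stood at 13.6, 7.79 and 8.72 in PD controls. With krill oil it was 21.2, 8.48 and 8.55 in WT and 19.3, 7.73 and 10.6 in PD. The ratio of the troponin I genes unc-27 and tni-1 went in WT controls from 25.8 at day 1 to 8.85 at day 3 and 1.82 at day 6, while it was 8.13 in WT krill oil and 15.9 in PD control at day 6. The ratio of the integrin genes pat-2 to pat-3 went in PD controls from 0.340 to 0.214 and 0.113, against 0.269, 0.323 and 0.283 with krill oil.

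**Figure D5:**
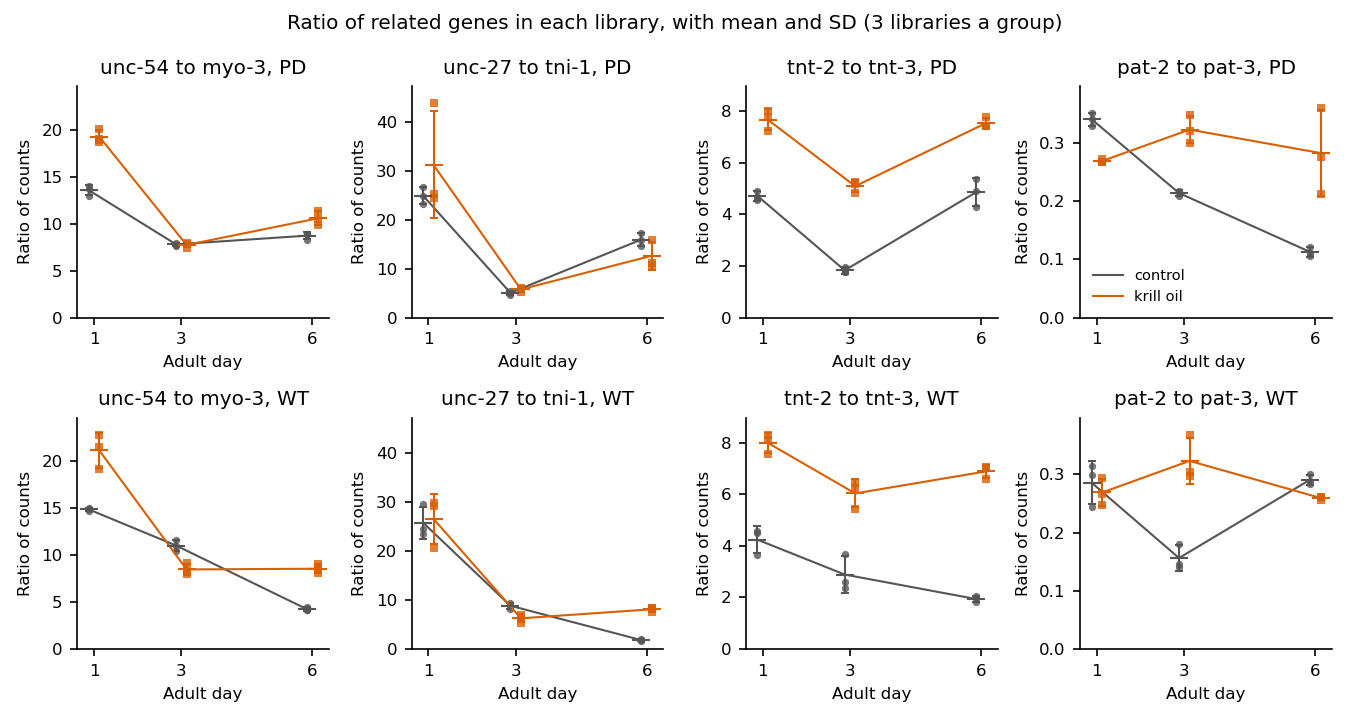
Ratio of counts of related genes within each library (y axis) against adult day (x axis) in PD (top) and WT (bottom), with points for libraries, lines through means and bars for the SD of 3 libraries. The tnt-2 to tnt-3 ratio lies above the control at each age with krill oil, and the unc-27 to tni-1 ratio is 1.82 in WT controls at day 6.

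The genes were also read as body wall and pharyngeal sets. Summed over 8 body wall genes (unc-54, myo-3, unc-15, mup-2, pat-10, tni-1, tni-3 and unc-27), the mean level went from 5955 CPM at day 1 to 1371 CPM at day 6 in PD controls and from 4831 to 2249 CPM in WT controls. With krill oil it was 3206 CPM in PD and 3096 CPM in WT at day 6. Summed over 5 pharyngeal genes (myo-1, myo-2, tni-4, tnt-4 and the troponin C gene tnc-2, which is not of the 38), it went from 388 CPM at day 1 to 85.8 CPM at day 6 in PD controls and from 306 to 513 CPM in WT controls. With krill oil it was 230 CPM in PD and 240 CPM in WT at day 6. With krill oil in WT at day 6, 6 of the 8 body wall genes were higher and 2 lower (myo-3 and tni-1), and 0 of the 5 pharyngeal genes were higher and 5 lower, where 30.9% of all genes were higher and 32.6% lower.

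Other genes of the sarcomere and its surroundings were taken from lists kept apart from the 38. Their counts at day 6 stand beside 24.8% higher and 12% lower of all genes in PD and 30.9% higher and 32.6% lower in WT. Of 29 other sarcomere and attachment genes tested, 23 were higher and 0 lower with krill oil in PD at day 6 (median 0.50), and 4 were higher and 17 lower in WT (median -0.24). The kettin gene ketn-1 was at 176 ± 2.42 CPM in PD controls and 297 ± 33.7 CPM with krill oil (0.79 ± 0.07), and dystrophin, dys-1, went from 135 ± 2.42 to 93 ± 6.85 CPM in WT (-0.53 ± 0.05). Of 24 calcium and excitation genes, 14 were higher and 0 lower in PD (median 0.65), and 1 was higher and 19 lower in WT (median -0.58). The calsequestrin gene csq-1, which stores calcium for release, was the 1 higher gene of that list in WT (0.84 ± 0.05) and was higher in PD as well (1.12 ± 0.09). The L-type calcium channel gene egl-19 fell in WT from 42.9 ± 2.41 to 23.5 ± 1.17 CPM (-0.86 ± 0.06).

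All 22 genes of the basement membrane and the epidermal side of muscle attachment were higher with krill oil in PD at day 6 (median 0.95), and 7 were higher and 12 lower in WT (median -0.14), where 30.9% and 32.6% of all genes were called, so that the share of higher genes was near that of all genes. Type IV collagen, encoded by emb-9, rose from 189 ± 6.85 to 419 ± 71.5 CPM in PD (1.18 ± 0.10), and hemicentin, him-4, from 103 ± 3.05 to 198 ± 26.4 CPM (0.98 ± 0.08). The laminin gene lam-3 fell in WT from 63.9 ± 2.42 to 30.2 ± 3.21 CPM (-1.07 ± 0.07). Of 7 muscle and pharynx transcription factor genes tested, 6 were higher and 0 lower in PD (median 1.27), where 24.8% and 12% of all genes were called, and 0 were higher and 5 lower in WT (median -1.07). The MyoD homologue hlh-1 was at 1.24 ± 0.172 CPM in PD controls and 2.97 ± 0.931 CPM with krill oil (1.27 ± 0.25). The SRF homologue unc-120 fell in WT from 13.04 ± 0.577 to 6.18 ± 0.446 CPM (-1.07 ± 0.10). At day 1 krill oil raised 4 of 6 transcription factor genes in PD and lowered 0 (median 0.60). Over all genes 7.44% were higher and 8.07% lower. In WT 2 of 7 were higher and 0 lower (median 0.61), against 4.87% and 2.49%. In PD at day 3, 0 of 7 were higher and 3 lower (median -0.14), against 21.2% and 19.9%. In WT 4 were higher and 0 lower (median 0.435), against 22% and 14.1%. Except in WT at day 3, these medians had the opposite sign to those of the main gene list.

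Markers of other tissues and stages moved in the same comparisons, and their part in the results was not tested. At PD day 6 with krill oil, where 24.8% of all genes were higher and 12% lower, 18 of 19 molting and larval cuticle markers, 12 of 12 adult epidermis markers, 16 of 16 sperm markers, 11 of 18 neuron markers, 9 of 15 intestine markers and 2 of 7 early embryo markers were higher, and 9 of 20 germline markers and 1 intestine marker were lower. Summed over its list, the molting level was 163 to 182 CPM in PD controls and 389 to 855 CPM with krill oil, highest in replicate 1, which also had the highest sum of the 38 genes. The adult epidermis level was 97.8 to 122 CPM in PD controls and 468 to 1060 CPM with krill oil, again highest in replicate 1. At WT day 6 with krill oil, where 30.9% of all genes were higher and 32.6% lower, 17 of 18 neuron markers, 11 of 19 molting markers, 10 of 15 intestine markers and 5 of 7 early embryo markers were lower. There 20 of 20 germline, 14 of 17 sperm and 9 of 12 adult epidermis markers were higher, with 3 adult epidermis, 3 molting and 3 intestine markers against the rest of their lists. The neuron level was 648 to 678 CPM in controls and 430 to 468 CPM with krill oil, the molting level 766 to 783 CPM and 556 to 609 CPM, and the adult epidermis level 343 to 387 CPM and 624 to 700 CPM. At day 3 with krill oil, where 21.2% of all genes were higher in PD and 22% in WT, 15 of 19 molting and 10 of 12 adult epidermis markers were higher in PD, and 17 of 19 and 10 of 12 in WT, with 9 and 12 of 18 neuron markers. In PD, where 19.9% of all genes were lower, 7 of 15 intestine, 4 of 8 early embryo and 4 neuron markers were lower, and 6 of 20 germline and 4 intestine markers higher. Lower there too were 2 germline, 1 molting and 1 adult epidermis marker. In WT, where 14.1% were lower, 9 of 20 germline, 4 of 15 intestine and 3 of 8 early embryo markers were lower, and 11 of 15 sperm and 3 intestine markers higher. At day 1 in PD, where 7.44% of all genes were higher and 8.07% lower, 7 of 16 sperm markers were lower and 6 of 17 molting markers higher with krill oil, and germline markers gave 0 calls in either direction. Of 10 adult epidermis markers tested, 3 were lower and 1 higher. The sum of that list was 1379 to 1592 CPM in controls and 761 to 971 CPM with krill oil. Of 8 early embryo markers 2 were higher, of 18 neuron markers 3 were lower, and 2 intestine markers went each way. At WT day 1, 4.87% of all genes were higher and 2.49% lower. There 0 of 8 adult epidermis markers were called. Their list summed to 841 to 1122 CPM in controls and 800.5 to 824 CPM with krill oil.

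The markers also moved between ages and strains of control animals, and their part there was not tested either. From day 1 to day 3, 14 of 19 molting markers were higher and 13 of 20 germline markers lower in PD controls, where 26.2% of all genes were higher and 21.5% lower. In WT controls 3 molting markers were higher and 3 lower over that step, and 11 of 17 sperm markers were lower, where 11.4% of all genes were higher and 12.3% lower. The summed adult epidermis level was 1379 to 1592 CPM at day 1 and 182 to 218 CPM at day 3 in PD controls. In WT controls it was 841 to 1122 CPM and 186.5 to 333 CPM. The ratio of mean sums, day 3 to day 1, was 0.136 in PD and 0.240 in WT for that list. For the intestine list it was 1.43 and 1.27, and for the neuron list 1.11 and 1.05. From day 3 to day 6, 16 of 18 neuron, 15 of 19 molting, 13 of 15 intestine and 6 of 12 adult epidermis markers were lower in PD controls and 18 of 20 germline markers higher, where 33.3% of all genes were lower and 28.4% higher. In WT controls 16 of 18 neuron, 17 of 19 molting and 9 of 12 adult epidermis markers were higher over that step and 20 of 20 germline markers lower, where 36.8% of all genes were higher and 28.5% lower. Over this step most called markers of the neuron, molting and adult epidermis lists had the direction of most of the 38 genes in each strain, and those of the germline list had the other.

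Between the control animals at day 6, where 43.5% of all genes were lower in PD and 30.2% higher, 17 of 18 neuron, 17 of 19 molting, 12 of 15 intestine and 9 of 12 adult epidermis markers were lower in PD, and 20 of 20 germline markers were higher. The neuron level was 383 to 396 CPM in PD and 648 to 678 CPM in WT, and the molting level 163 to 182 CPM and 766 to 783 CPM. The adult epidermis level was 97.8 to 122 CPM in PD and 343 to 387 CPM in WT, and the germline level 16390 to 16600 CPM and 11290 to 12060 CPM. At day 3, 14 of 19 molting and 8 of 18 neuron markers were higher in PD and 18 of 20 germline markers lower, where 21.5% of all genes were higher and 16.3% lower.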

How the data were processed

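Whole-worm RNA was depleted of ribosomal RNA, and the authors used STAR 2.7.10a, with WBcel235 as the genome, and molecular identifiers to drop duplicate read pairs. What they deposited, 1 file per library, are raw counts by gene identifier. For the study's age prediction the methods name gene counts by STAR, and for the deposited counts the program and its use of strand are not given in the sources used here. Symbols, chromosomes and exon lengths came from Ensembl release 115, and 46603 of 46778 identifiers were found in it. Groups were taken from the sample labels. The 38 genes, the other lists and the markers were chosen with earlier results of these data known.

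Tests were edgeR's quasi-likelihood tests (edgeR 4.0.16, limma 3.58.1, R 4.3.3) after filterByExpr and TMM scaling. Krill oil was compared with control in the 6 libraries of a strain and day, ages in the 18 libraries of a strain, and control animals of the strains, and the difference of their krill oil effects, in the 12 libraries of a day. The standard error is the size of the log2 fold change divided by the square root of F. Alternatives were DESeq2 1.42.0, RLE factors, library totals alone, removal of all-zero genes alone, removal of ribosomal RNA genes, all 36 libraries in 1 fit, the 6 libraries compared, a replicate block and each library left out. Correlations of deviations between same-numbered replicates of the diets ran from -0.0606 to 0.310, the highest for replicate 1 at PD day 6. Differently numbered replicates were not set beside them, so this does not decide whether the numbers pair the samples. The main tests took the samples as unpaired.

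Library values are given for up to 4 genes of a role: those with the largest called change at PD day 6 and then at WT day 6, and those against most of their role. Values of unc-54, myo-3, tni-1 and act-2, and other genes named beyond this rule, were chosen after their values were seen. Of each other list, up to 3 genes with the smallest p at PD or WT day 6 could be named. Sequences of the genes are not printed here.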

Additional observations from a re-analysis of the deposited data

Results flagged for a closer look

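The krill oil effect differed between the strains, by a test of the difference itself, for 1 gene at day 3 and for 34 genes at day 6. At day 3 the gene was pat-2 (-0.42 on the log2 scale), where 3.4% of all genes were higher and 6.2% lower. That is a smaller share than over all genes, and the call was lost when all 36 libraries were fitted together. At day 6 the effect was more positive in PD for 32 genes and more positive in WT for 2, against 34.5% and 25.1% of all genes. The 2 calls fell to 0 without replicate 1 of PD control or replicate 2 of WT control. The largest differences were 3.19 for tnt-4, 2.82 for myo-1, 2.63 for myo-2 and 2.53 for tni-1, all higher with krill oil in PD and lower in WT in 3 of 3 libraries of each strain. No group has over 3 libraries, so single libraries were not tested as standing apart.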

How the results depend on the processing

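No call of the 38 genes turned to the opposite direction under any alternative. Under library totals alone, 12 genes were higher at WT day 6. In 1 fit of all 36 libraries, 0 were lower at PD day 3, 3 were lower in PD than WT controls at day 3 and 0 were lower in the strain interaction at day 3. DESeq2 gave 8 lower in PD than WT controls at day 3 and 1 higher in the interaction at day 3, and RLE factors gave 1 there too. When the filter on low counts took out all-zero genes alone, 2 were higher from day 1 to 3 in PD controls, 1 was higher and 26 lower from day 3 to 6 in WT krill oil, 14 were lower in PD than WT controls at day 3, 6 were lower in the interaction at day 1, and 10 were higher and 4 lower in that at day 3. With the 6 libraries compared, 2 were higher from day 1 to 3 in PD controls, 1 was higher from day 3 to 6 in PD krill oil, and 1 was higher and 23 lower in WT krill oil. The cause was not tested.

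Leaving out 1 library at a time gave these ranges. Lower genes numbered 9 to 30 at WT day 1, 0 to 1 at PD day 6, 14 to 24 and 8 to 14 from day 3 to 6 in PD and WT krill oil, 3 to 10 in PD against WT controls at day 3, 0 to 7 in the interaction at day 3 and 0 to 2 at day 6. Higher genes numbered 2 to 9 from day 3 to 6 in PD krill oil, 0 to 1 from day 1 to 3 in WT controls, 9 to 22, 4 to 14 and 2 to 4 in PD against WT controls at day 1, 3 and 6, and 0 to 3 in the interaction at day 3. Medians for krill oil ranged from -0.42 to -0.31, 0.71 to 0.75 and 0.94 to 1.17 in PD and from -0.29 to -0.15, 0.60 to 0.81 and 0.13 to 0.17 in WT. With the replicate number as a block, 33, 35 and 35 genes were called in the main direction in PD and 11, 33 and 22 in WT, and no other count moved by over 1.5 times. Of 1326 values of single genes under alternatives, 27 lost the call, 11 gained it and 0 reversed.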
